A study of Arabidopsis thaliana with 6 samples.

Results

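The genes described here are 10 *A. thaliana* genes that make small RNAs, chosen by name with earlier results of these data known. These are the 4 Dicer-like genes (*DCL1*, *DCL2*, *DCL3* and *DCL4*), the RNA-dependent RNA polymerase genes *RDR1*, *RDR2* and *RDR6*, and *SGS3*, *SDE3* and *HEN1*. They are 10 of 33242 genes in the deposited tables, which also hold 31100 transposable elements. Polyadenylated RNA of 14-d-old Col-0 seedlings was sequenced from 3 genotypes with 2 replicates each, 6 libraries in all. WT is unmutated Col-0, *nerd-1* plants carried a T-DNA insertion in *NERD*, and *nerd-1*+T plants carried the same insertion and expressed a flag-tagged NERD. NERD is a PHD-finger and AGO-hook protein linked to small RNA-dependent DNA methylation, and the libraries were made to compare transcripts with and without it. Nothing in the labels says whether replicates came from separate cultures, so *p*-values measure the spread between these libraries only. The promoter of the transgene and the number of independent transgenic lines are not given in the sources used here.

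Dicer proteins cut double-stranded RNA into small RNAs. DCL1 releases miRNAs from hairpin precursors, DCL4 makes trans-acting siRNAs (tasiRNAs), DCL2 makes slightly longer siRNAs that act against viruses and can stand in for DCL4, and DCL3 makes the siRNAs that direct DNA methylation. The RDR proteins make the double-stranded substrates, RDR6 together with SGS3 for tasiRNAs, RDR2 together with RNA polymerase IV for DCL3, and RDR1 mostly under virus attack and salicylic acid. SDE3 is an RNA helicase of the same silencing pathway, and HEN1 methylates the ends of miRNAs and siRNAs. The libraries hold mRNA, so the levels below are those of the genes that make small RNAs and not of the small RNAs.

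Some of these genes and their precursor transcripts carry small RNA sequences of their own, shown here because the levels of those transcripts are given below. *DCL1* mRNA is a target of miR162, and the *TAS3* transcript is a target of miR390. Sequences were read from the RefSeq TAIR10.1 genome, with bases 2 to 8 of each miRNA, the seed, in capitals. In the *DCL1* sites, capitals mark exon 13 and lower case exon 12, and in the *TAS3* site capitals mark the bases opposite the miR390a seed.
miR162a-3p: uCGAUAAAccucugcauccag
*DCL1* site, transcript AT1G01040.1: cuggaugcagagGUAUUAUCGA
*DCL1* site, transcript AT1G01040.2: cuggaugcagagguuGUAUUAUCGA
miR390a-5p: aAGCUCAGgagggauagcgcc
*TAS3* site: gguguuauccuauCUGAGCUu
miR838: uUUUCUUCuacuucuugcaca

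The *DCL1* site lay across a splice junction, at chr1:27522-27533 in exon 12 and chr1:27618-27627 in exon 13 on the plus strand. In the first transcript its 22 bases formed 21 Watson-Crick pairs with miR162a-3p and left 1 base unpaired. In the second transcript exon 12 ran on for 3 more bases, which fall inside the site. The *TAS3* site, at chr3:5862099-5862119 on the plus strand, formed 16 Watson-Crick and 4 G-U pairs with miR390a-5p. The miR838 sequence, at chr1:28635-28655, lay within intron 14 of *DCL1*. The levels are per gene, so the 2 *DCL1* transcripts were not told apart.

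NERD mRNA was used to check the labels. *NERD* (AT2G16485) was at 14.1 and 13.9 FPKM (fragments per kilobase of transcript scaled to the mapped fragments of the library) in WT, at 7.59 and 7.45 in *nerd-1* and at 63.7 and 63.5 in *nerd-1*+T. It was therefore lower in *nerd-1* than in WT (log2 change -0.81 ± 0.04 SE, limma adjusted *p* = 0.000306) but not absent, and higher in *nerd-1*+T than in WT (2.11 ± 0.04, limma adjusted *p* = 3.39e-05). The leaf gene *RBCS1A* (9496 to 12238 FPKM) was high in every library. In WT the leaf gene *CAB1* was listed at 11763 and 11623 FPKM. It was listed at 0 in both *nerd-1* libraries and at 13469 and 0 in *nerd-1*+T. The *nerd-1*+T replicates thus disagreed for *CAB1*, so its zeros are not read as a loss of the transcript. How these zeros arose was not tested. The root genes *PYK10* (2142 and 2163 FPKM in WT, 1396 to 1565 in the other 4 libraries) and *BGLU22* (33.7 and 37.2 in WT, 25.1 to 27.7 in the others) were highest in WT, and the root gene *TIP2;3* was lowest in WT (9.17 and 9.44 in WT, 20.8 to 35.4 in the others). The flower genes *AP3* and *AG* and the seed gene *SESA3* stayed at or under 0.132 FPKM, and the seed gene *CRA1* was at 0.0894 and 0.134 FPKM in WT and 0.177 to 0.963 in the others. The part of these marker differences in the results below was not tested. The median SD of log2(FPKM + 1) between replicates was 0.04 for WT and for *nerd-1* and 0.09 for *nerd-1*+T. The sources give a range of reads over the libraries, but the tables hold no read counts, so the depth of each library is unknown. The whole transcriptome was shifted as well, by a median log2 change over 20249 features of -0.11 for *nerd-1* and -0.17 for *nerd-1*+T, both against WT, and of 0.06 in *nerd-1* against *nerd-1*+T.

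All 10 genes were expressed, at low to moderate levels. Over the 6 libraries their mean FPKM ran from 3.67 for *DCL3* to 12.6 for *DCL1*, which placed them between percentiles 16.7 and 47.3 of the 19239 genes with a mean of at least 1 FPKM. FPKM are per length, so levels of different genes can be set side by side. In WT the order of the means was *DCL1* (12.8 FPKM), *DCL2* (11.6), *RDR6* (11.5), *SGS3* (9.65), *RDR1* (7.18), *DCL4* (6.72), *SDE3* (6.70), *HEN1* (5.86), *RDR2* (4.34) and *DCL3* (4.13). The replicates of *DCL2* and *RDR6*, of *DCL4* and *SDE3*, and of *RDR2* and *DCL3* overlapped in WT, and the other neighbours in this order did not. *DCL1* was the highest of the 10 and *RDR2* and *DCL3* the lowest in each genotype. *DCL2* stood next to it in WT and *nerd-1*+T and behind *DCL1*, *RDR6* and *SGS3* in *nerd-1*. Replicates differed little, with a coefficient of variation of at most 8.51% for WT, 12.9% for *nerd-1* and 11.5% for *nerd-1*+T. All 10 genes passed the filter of at least 1 FPKM in at least 2 libraries.

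**Figure D1:**
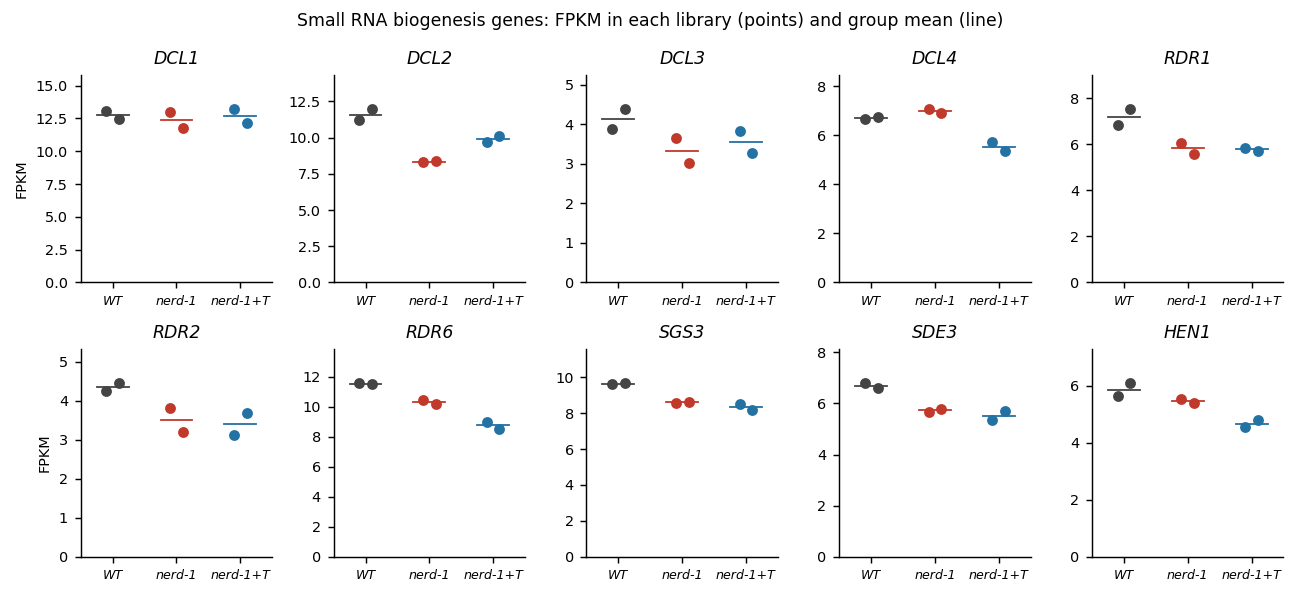
FPKM of the 10 genes in the 2 libraries of each genotype (points) and the group mean (line), with each vertical axis starting at 0. DCL2 is lowest in nerd-1, DCL4, RDR6 and HEN1 are lowest in nerd-1+T, and the groups of DCL1 overlap.

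The first comparison asked which of these genes differed between *nerd-1* and WT. *DCL2*, *RDR1* and *SDE3* were lower in *nerd-1*, no member was higher, and *DCL2* had the largest change. These 3 called of 10 stand against 55.7% of all features called in this comparison. Of all features tested, 36.3% were lower and 19.4% higher. The median log2 change of the 10 genes was -0.17, beside -0.11 for all features tested. Both *nerd-1* libraries lay below both WT libraries for 8 of the 10 genes, which 53.2% of all features did, and above them for 1 (*DCL4*), which 32.5% did. In whole seedlings, less RNA per cell and fewer cells that express a gene cannot be told apart.

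Among the Dicer-like genes, *DCL2* (AT3G03300, TAIR10.1 chr3:767880-776214, minus strand) was at 11.2 and 11.96 FPKM in WT, at 8.32 and 8.36 in *nerd-1* and at 9.70 and 10.09 in *nerd-1*+T. The 3 genotypes did not overlap, with *nerd-1* lowest and *nerd-1*+T between. In *nerd-1*+T against WT the log2 change of *DCL2* was -0.21, and only -0.03 relative to the median of all features. Set against WT, the log2 change of *nerd-1* was -0.43 ± 0.06 (SE, limma adjusted *p* = 0.00304), and -0.32 relative to the median of all features. This call was kept under all 13 alternative settings, with adjusted *p* from 0.00118 to 0.031 by limma. *DCL2* shared 847 bp on the same strand with AT3G03305, a protein-coding gene whose reads could be assigned to either. AT3G03305 was at 9.70 and 10.6 FPKM in WT, at 8.46 and 8.67 in *nerd-1* and at 9.67 and 8.90 in *nerd-1*+T, a log2 change in *nerd-1* against WT of -0.22 (limma adjusted *p* = 0.0403). The neighbour was thus lower by less than *DCL2* itself, and the part of shared reads in the *DCL2* values was not tested.

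*DCL4* (AT5G20320, chr5:6859212-6869307, minus strand) had another pattern. It was at 6.69 and 6.75 FPKM in WT, at 7.07 and 6.90 in *nerd-1* and at 5.73 and 5.37 in *nerd-1*+T. The *nerd-1* libraries were the highest of the 6, but the log2 change from WT was only 0.05, with a 95% interval from -0.10 to 0.19 (limma adjusted *p* = 0.506), and turned to -0.08 when library totals were made equal.

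*DCL1* (AT1G01040, chr1:23121-31227, plus strand) passed the test in none of the 3 comparisons. It was at 13.1 and 12.5 FPKM in WT, at 12.99 and 11.8 in *nerd-1* and at 13.2 and 12.2 in *nerd-1*+T. The 3 genotypes overlapped, and the 95% interval of the log2 change in *nerd-1* against WT ran from -0.22 to 0.14. *MIR162A* (AT5G08185), 1 of the loci that give miR162, was at 19.4 and 17.2 FPKM in WT, at 15.7 and 13.2 in *nerd-1* and at 10.8 and 10.3 in *nerd-1*+T. Its precursor transcript was lower in *nerd-1* (-0.32, limma adjusted *p* = 0.0382) and in *nerd-1*+T (-0.73, limma adjusted *p* = 0.00303), and the call in *nerd-1* was lost with median scaling, with no filter on low values and without either WT library or *nerd-1* replicate 2. *MIR838*, inside intron 14, varied widely between replicates of *nerd-1*+T, with 0.943 and 1.94 FPKM for WT, 6.14 and 3.58 for *nerd-1* and 7.32 and 0.948 for *nerd-1*+T. Both *nerd-1* libraries lay above both WT libraries without passing the test (log2 change 1.26, limma adjusted *p* = 0.173). *PPa1*, which shares 58 bp with *DCL1* on the opposite strand, was at 57.8 and 60.6 FPKM in WT, at 69.2 and 70.6 in *nerd-1* and at 52.6 and 46.1 in *nerd-1*+T. *DCL1* also shared 788 bp with the antisense lncRNA AT1G03993, which has no entry in the tables used here.

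*DCL3* (AT3G43920, chr3:15753387-15760859, plus strand) was among the lowest of the 10. It was at 3.88 and 4.38 FPKM in WT, at 3.64 and 3.03 in *nerd-1* and at 3.83 and 3.26 in *nerd-1*+T. Both lines lay below WT, but the log2 change in *nerd-1* of -0.25 had a 95% interval from -0.52 to 0.03 (limma adjusted *p* = 0.110). In *nerd-1*+T the log2 change was -0.18 (limma adjusted *p* = 0.230). *DCL3* passed the test in none of the 3 comparisons.

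Among the polymerase genes, *RDR1* (AT1G14790, chr1:5093961-5098270, minus strand) was at 6.84 and 7.52 FPKM in WT, at 6.05 and 5.59 in *nerd-1* and at 5.82 and 5.72 in *nerd-1*+T. It was lower than in WT in both lines, by a log2 change of -0.26 ± 0.07 in *nerd-1* (limma adjusted *p* = 0.0261) and -0.27 ± 0.07 in *nerd-1*+T (limma adjusted *p* = 0.0246). The 2 lines overlapped each other.

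*RDR2* (AT4G11130, chr4:6780449-6784632, plus strand) was at 4.24 and 4.44 FPKM in WT, at 3.80 and 3.21 in *nerd-1* and at 3.12 and 3.68 in *nerd-1*+T. Both lines lay below WT without passing the test, with limma adjusted *p* = 0.0847 and 0.0625. The gene that ends 205 bp before *RDR2* on the same strand, AT4G11120, was at 22.3 and 21.5 FPKM in WT, at 12.8 and 13.3 in *nerd-1* and at 13.6 and 14.98 in *nerd-1*+T. It was lower in *nerd-1* than in WT by -0.71 on the log2 scale (limma adjusted *p* = 0.00113).

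*RDR6* (AT3G49500, chr3:18348974-18353673, minus strand) was at 11.54 and 11.52 FPKM in WT, at 10.4 and 10.2 in *nerd-1* and at 8.99 and 8.52 in *nerd-1*+T. The genotypes did not overlap, and the *nerd-1*+T line, not *nerd-1*, stood farthest from WT. The log2 change in *nerd-1* was -0.15 (95% interval -0.28 to -0.01, limma adjusted *p* = 0.0604), and relative to the median of all features it was -0.04. AT3G49490, which starts 243 bp after *RDR6* on the same strand, was at 36.9 and 37.3 FPKM in WT, at 30.1 and 30.9 in *nerd-1* and at 29.8 and 32.3 in *nerd-1*+T, lower in *nerd-1* than in WT (-0.27, limma adjusted *p* = 0.0102).

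*SGS3* (AT5G23570, chr5:7942908-7946147, plus strand), the partner of RDR6, was at 9.648 and 9.650 FPKM in WT, at 8.56 and 8.62 in *nerd-1* and at 8.51 and 8.17 in *nerd-1*+T. Its 95% interval in *nerd-1* against WT ran from -0.28 to -0.02 (log2 change -0.15, limma adjusted *p* = 0.0515). AT5G23575, 137 bp downstream, was at 57.4 and 59.3 FPKM in WT, at 40.2 and 41.8 in *nerd-1* and at 38.2 and 40.5 in *nerd-1*+T. It was lower in both lines than in WT, with log2 changes of -0.50 (limma adjusted *p* = 0.00171) and -0.56 (limma adjusted *p* = 0.000982). The tested genes just downstream of a member on its strand were only AT3G49490 and AT5G23575. Both were lower in *nerd-1* than in WT, as 36.3% of all features were, and *MS5*, given below, was under the filter for tests.

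*SDE3* (AT1G05460, chr1:1601148-1605034, minus strand) was at 6.78 and 6.61 FPKM in WT, at 5.66 and 5.80 in *nerd-1* and at 5.35 and 5.71 in *nerd-1*+T. It was lower in *nerd-1* (-0.19 ± 0.06, limma adjusted *p* = 0.0380). *HEN1* (AT4G20910, chr4:11185936-11191123, minus strand) was at 5.64 and 6.08 FPKM in WT, at 5.55 and 5.40 in *nerd-1* and at 4.54 and 4.81 in *nerd-1*+T. In *nerd-1* it stood 0.08 below WT on the log2 scale (-0.08, 95% interval -0.25 to 0.08, limma adjusted *p* = 0.318), and its sign turned with median scaling (0.02). *MS5*, 91 bp downstream of *HEN1*, was listed at 0.0841 and 0.0853 FPKM in *nerd-1* and at 0 to 0.0242 in the other 4 libraries, under the filter for tests. Opposite-strand genes shared 43 bp with *DCL3*, 192 bp with *RDR1* and 67 bp with *SDE3* and were at or under 2.37 FPKM.

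**Figure D2:**
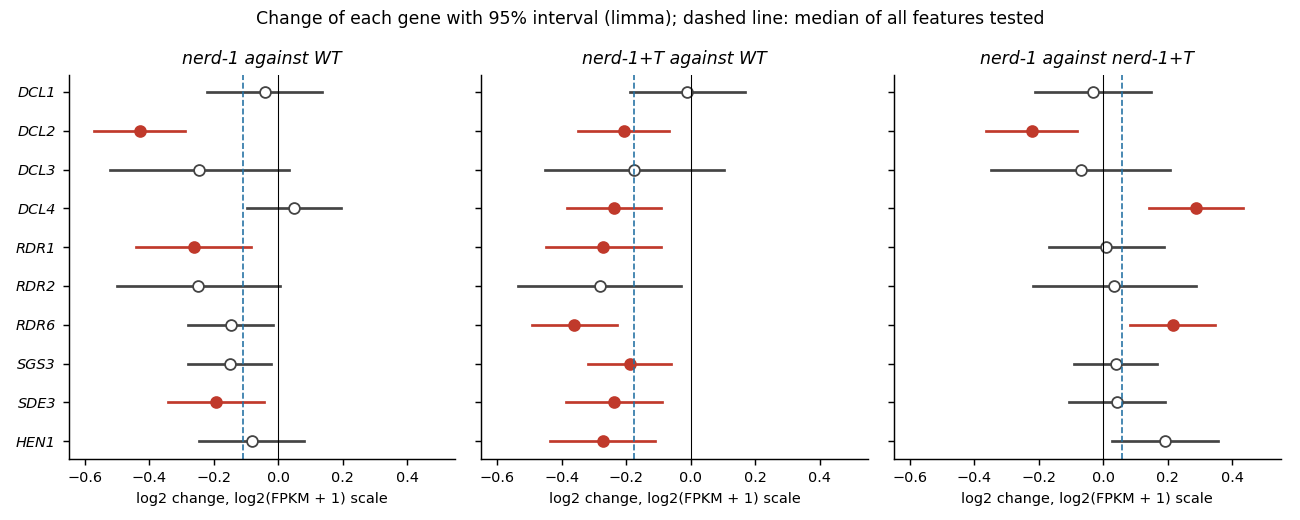
Log2 change of each gene on the log2(FPKM + 1) scale in the 3 comparisons, with the 95% interval from limma; filled red points passed an adjusted p of 0.05 and open points did not. The dashed line is the median of the 20249 features tested (-0.11, -0.17 and 0.06), near which most members lie, with DCL2 to its left in nerd-1 against WT.

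The limits of this comparison lie in its scaling and in its 4 libraries. With equal library totals 8 members were lower, and with median scaling only *DCL2* was. Without the filter on low values *SDE3* was no longer called and *SGS3* was. Leaving out either WT library or either *nerd-1* library left only *DCL2* called, and leaving out either *nerd-1*+T library, which enters through the shared variance, gave 5 lower members.

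The second comparison set the complemented line against WT and asked whether these genes were at WT levels when tagged NERD was present. Of the 10 genes, 7 were lower in *nerd-1*+T (*DCL2*, *DCL4*, *RDR1*, *RDR6*, *SGS3*, *SDE3* and *HEN1*) and none was higher. In this comparison 53.1% of all features were called, 39.8% lower and 13.2% higher. The median log2 change was -0.24 for the 10 genes and -0.17 for all features. Both *nerd-1*+T libraries lay below both WT libraries for 9 of the 10, which 57.3% of all features did, and above them for none, which 19.8% did. This comparison uses the same WT libraries as the first, so its values are given beside those of *nerd-1* and the lists were not tested for overlap.

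The largest change was that of *RDR6* (-0.36 ± 0.05, limma adjusted *p* = 0.0038), which was also -0.19 relative to the median of all features. It was the only member whose call was kept under all 13 alternatives, with adjusted *p* from 0.00281 to 0.0394 by limma. *HEN1* was lower by -0.27 ± 0.07 (limma adjusted *p* = 0.0185) and *DCL4* by -0.24 ± 0.06 (limma adjusted *p* = 0.0196). *SDE3* changed by -0.24, *DCL2* by -0.21 and *SGS3* by -0.19, with limma adjusted *p* from 0.0213 to 0.0276. Relative to the median of all features, the called members other than *RDR6* ran from -0.10 (*HEN1*) to -0.01 (*SGS3*), so they lay near the overall shift. *DCL1* was at -0.01 (95% interval -0.19 to 0.17), *DCL3* at -0.18 and *RDR2* at -0.28, and these 3 did not pass. With median scaling only *RDR6* stayed called, and leaving out either WT library had the same effect. Leaving out either *nerd-1* library left *RDR1*, *RDR6* and *HEN1*.

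**Figure D3:**
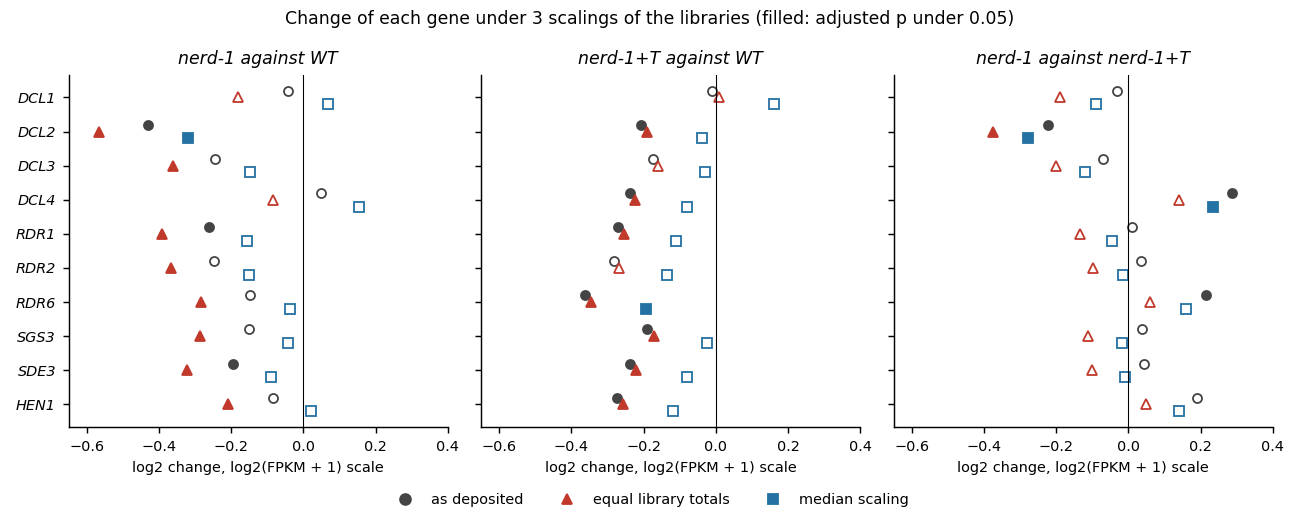
Log2 change of each gene in the 3 comparisons with FPKM as deposited (circles), with equal library totals (triangles) and with median scaling (squares); filled symbols had an adjusted p under 0.05. DCL2 in nerd-1 against WT and RDR6 in nerd-1+T against WT are filled under all 3 scalings.

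The third comparison set *nerd-1* directly against the complemented line, which share the T-DNA insertion. *DCL4* and *RDR6* were higher in *nerd-1* and *DCL2* was lower. These 3 of 10 stand against 37.9% of all features called, 24.0% higher and 14.0% lower. *DCL4* differed by 0.29 ± 0.06 (limma adjusted *p* = 0.0169), *RDR6* by 0.21 ± 0.05 (limma adjusted *p* = 0.0287) and *DCL2* by -0.22 ± 0.06 (limma adjusted *p* = 0.0315). *HEN1* was 0.19 higher, with a 95% interval from 0.03 to 0.35 and limma adjusted *p* = 0.0685. The median of the 10 genes was 0.04, beside 0.06 for all features. *RDR1*, *RDR2*, *SDE3*, *DCL1* and *DCL3* overlapped between the 2 lines, both *nerd-1* libraries lay above both *nerd-1*+T libraries for 4 genes and below for *DCL2*, and over all features these shares were 44.4% and 29.2%. Of these calls *DCL2* and *DCL4* were kept with median scaling and only *DCL2* with equal library totals. With 1 *nerd-1* library left out, either one, no member was called, and with 1 WT library left out, either one, only *DCL4* was.

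Ratios between members within a library do not depend on how the library was scaled. The ratios described here were chosen after the values had been seen and carry no test. *DCL2* FPKM divided by *DCL4* FPKM gave 1.68 and 1.77 for WT, 1.18 and 1.21 for *nerd-1* and 1.69 and 1.88 for *nerd-1*+T. WT and *nerd-1*+T overlapped in this ratio and *nerd-1* stood below both. *DCL2* made up 32.2% and 33.6% of the summed *DCL* FPKM in the WT libraries, 26.0% and 27.8% in those of *nerd-1* and 29.9% and 32.7% in those of *nerd-1*+T. The share of *DCL4* was 19.2% and 19.0% for WT, 22.1% and 22.9% for *nerd-1* and 17.6% and 17.4% for *nerd-1*+T.

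Of all 45 pairs among the 10 genes, *nerd-1* lay apart from both other genotypes in 22. It lay apart from WT in 32 pairs, and *nerd-1*+T lay apart from WT in 19. Pairs share genes, so these counts are not independent, and the share over pairs of all features was not computed. Among single features, both *nerd-1* libraries lay below both WT libraries for 53.2% and above them for 32.5%. Lying apart was thus common, and the pair counts are descriptive only. Of these 22 pairs, 8 held *DCL2*, 9 held *DCL4*, and 6 held neither. Among the 22, the pair *DCL2* and *DCL4* had the largest change, with a log2 ratio lower by -0.53 in *nerd-1* than in WT and by -0.58 than in *nerd-1*+T, while *nerd-1*+T stood 0.05 from WT. The ratio of *RDR6* to its partner *SGS3* showed the other arrangement. In WT this ratio was 1.196 and 1.194, against 1.22 and 1.18 for *nerd-1* and 1.06 and 1.04 for *nerd-1*+T. Here WT and *nerd-1* overlapped and *nerd-1*+T stood below both.

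**Figure D4:**
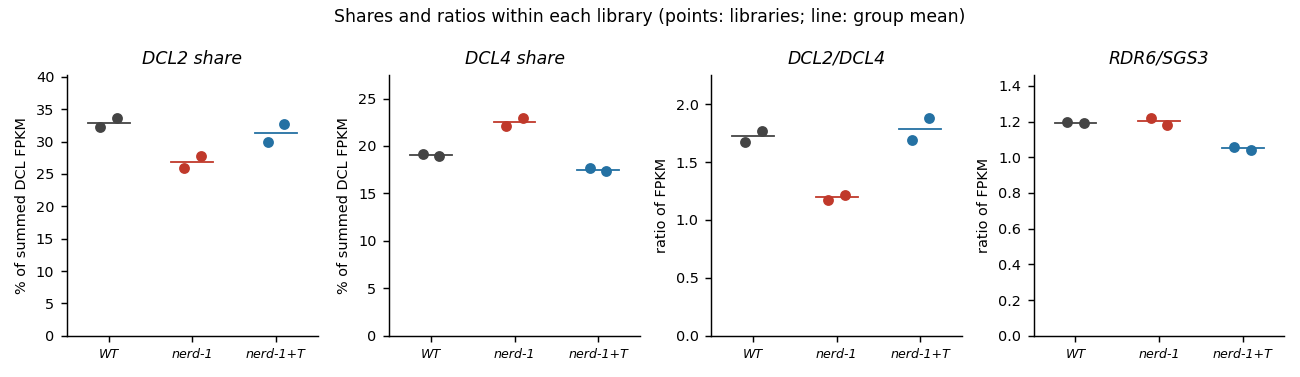
Share of DCL2 and of DCL4 in the summed FPKM of the 4 DCL genes, and the ratios DCL2/DCL4 and RDR6/SGS3, in each library (points) with the group mean (line); all vertical axes start at 0. DCL2/DCL4 is 1.18 and 1.21 in nerd-1 and at least 1.68 in the other libraries, and RDR6/SGS3 is at most 1.06 in nerd-1+T and at least 1.18 elsewhere.

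The other genes of these pathways were taken from 7 lists with 55 genes, of which 39 passed the filter. The lists were chosen with earlier results of these data known, so their counts beside the shares over all features are descriptive only. In *nerd-1* against WT 2 of the 39 were higher and 17 lower, in *nerd-1*+T against WT 0 were higher and 17 lower, and in *nerd-1* against *nerd-1*+T 8 were higher and 4 lower. Over all features the shares higher and lower were 19.4% and 36.3%, 13.2% and 39.8%, and 24.0% and 14.0%. The medians of the 39 log2 changes were -0.23, -0.22 and 0.05, beside -0.11, -0.17 and 0.06 for all features.

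Most of the tasiRNA precursors and co-factors were lower in *nerd-1* than in WT. TAS transcripts are non-coding RNAs that are cut by a miRNA, copied by RDR6 and SGS3 and diced by DCL4. Of the 10 genes listed 7 were tested, and 6 were lower in *nerd-1*, 5 were lower in *nerd-1*+T, beside 36.3% and 39.8% of all features. Their medians were -0.56 and -0.26, beside -0.11 and -0.17. *TAS3* (AT3G17185), the miR390 target whose site is shown above, was at 88.1 and 87.8 FPKM in WT, at 40.6 and 39.7 in *nerd-1* and at 54.1 and 60.2 in *nerd-1*+T. The 3 genotypes did not overlap, with *nerd-1* lowest. *TAS3* was lower than in WT by -1.11 ± 0.06 in *nerd-1* (limma adjusted *p* = 0.000326) and by -0.61 in *nerd-1*+T (limma adjusted *p* = 0.00124), and lower in *nerd-1* than in *nerd-1*+T by -0.50 (limma adjusted *p* = 0.00448). The last call was lost without *nerd-1* replicate 2 (adjusted *p* = 0.0503 by limma), and the first 2 were kept under all 13 alternatives.

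*TAS1A* was at 19.5 and 18.9 FPKM in WT, at 11.6 and 10.4 in *nerd-1* and at 12.2 and 14.4 in *nerd-1*+T. *TAS1B* was at 15.5 and 14.4 FPKM in WT, at 8.87 and 8.25 in *nerd-1* and at 8.89 and 9.82 in *nerd-1*+T. *TAS1C* was at 8.99 and 9.63 FPKM in WT, at 6.44 and 5.56 in *nerd-1* and at 7.72 and 7.48 in *nerd-1*+T. For these 3 miR173 targets both lines lay below WT in all libraries. The log2 changes in *nerd-1* were -0.75, -0.74 and -0.56 (limma adjusted *p* from 0.00147 to 0.00387), and these calls were kept under all 13 alternatives. *TAS3B*, *TAS3C* and *TAS4* were under 0.6 FPKM in each library and were not tested. With median scaling 5 of the 7 tested genes were still lower in *nerd-1*, with a median of -0.45.

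**Figure D5:**
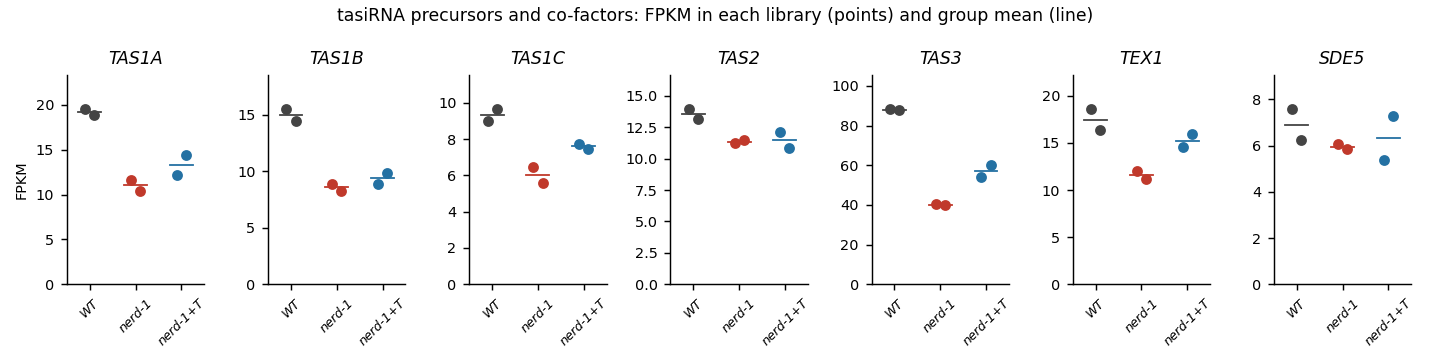
FPKM of the 7 tested tasiRNA precursors and co-factors in each library (points) with the group mean (line); all vertical axes start at 0. TAS3 falls from about 88 FPKM in WT to 40.6 and 39.7 in nerd-1, with 54.1 and 60.2 for nerd-1+T, and SDE5, which did not pass the test, overlaps between WT and nerd-1+T.

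Of the 7 listed tasiRNA targets 3 were tested. *ARF3* and *ARF4* encode auxin response factors whose mRNAs are cut by *TAS3*-derived tasiRNAs. *ARF3* was at 11.4 and 11.7 FPKM in WT, at 13.5 and 12.99 in *nerd-1* and at 9.82 and 7.82 in *nerd-1*+T. *ARF4* was at 13.1 and 12.9 FPKM in WT, at 12.7 and 13.4 in *nerd-1* and at 10.6 and 8.41 in *nerd-1*+T. Neither passed the test in *nerd-1* against WT (log2 change 0.18, limma adjusted *p* = 0.180, and 0.01, limma adjusted *p* = 0.954). Both were lower in *nerd-1*+T than in WT (-0.36, limma adjusted *p* = 0.0318, and -0.42, limma adjusted *p* = 0.0233) and lost these calls with median scaling, with no filter on low values and without either WT library, and *ARF3* also with only the 2 genotypes in the fit and without either *nerd-1* library. *ARF2*, another auxin response factor, was at 116 and 117 FPKM in WT, at 128 and 126 in *nerd-1* and at 132 and 121 in *nerd-1*+T, and was not called. None of the 3 was called in *nerd-1* against WT and 2 were lower in *nerd-1*+T, beside 55.7% and 39.8% of all features, with a median of 0.13 for *nerd-1* and -0.36 for *nerd-1*+T.

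Of the dsRNA-binding and RNase III-like genes, 4 of 6 tested were lower in both lines. Over all features 36.3% were lower in *nerd-1* and 39.8% with the transgene. *DRB3* was at 37.3 and 40.3 FPKM in WT, at 19.9 and 20.4 in *nerd-1* and at 14.0 and 19.6 in *nerd-1*+T. *DRB2* was at 33.1 and 34.8 FPKM in WT, at 23.8 and 24.6 in *nerd-1* and at 22.9 and 26.2 in *nerd-1*+T. Both genes separated the lines from WT, with log2 changes in *nerd-1* of -0.91 (limma adjusted *p* = 0.00556) and -0.47 (limma adjusted *p* = 0.00508), kept under all 13 alternatives. *DRB4*, the partner of DCL4, was at 17.8 and 16.7 FPKM in WT, at 12.7 and 11.4 in *nerd-1* and at 11.8 and 13.8 in *nerd-1*+T. It was lower by -0.48 in *nerd-1* (limma adjusted *p* = 0.00921), a call that was lost without WT replicate 1 or *nerd-1* replicate 2. *RTL2*, an RNase III-like gene, was at 5.70 and 5.97 FPKM in WT, at 4.06 and 4.43 in *nerd-1* and at 3.35 and 4.35 in *nerd-1*+T, lower in *nerd-1* by -0.38 (limma adjusted *p* = 0.0343), and lost this call with median scaling, with no filter on low values and without any 1 of the WT and *nerd-1* libraries. The medians of the 6 genes were -0.43 in both lines.

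Of 13 tested partners of miRNA processing, 2 were higher and 4 lower in *nerd-1*, beside 19.4% and 36.3% of all features, and 3 were lower in *nerd-1*+T, beside 39.8%. Each count is under the share over all features. *CPL1*, a phosphatase that acts on the miRNA-processing protein HYL1, was at 10.5 and 9.96 FPKM in WT, at 12.8 and 12.5 in *nerd-1* and at 7.15 and 6.77 in *nerd-1*+T. The 3 genotypes did not overlap, and WT lay between the lines. *CPL1* was higher in *nerd-1* than in *nerd-1*+T by 0.78 ± 0.06 (limma adjusted *p* = 0.00127). In *nerd-1*+T it was lower than in WT by -0.50 (limma adjusted *p* = 0.00181), and both calls were kept under all 13 alternatives. Its rise over WT in *nerd-1* (0.28, limma adjusted *p* = 0.0105) was lost with equal library totals, without WT replicate 2 and without either *nerd-1* library. *HESO1*, which adds uridines to unmethylated miRNAs, was at 8.89 and 8.71 FPKM in WT, at 6.64 and 6.55 in *nerd-1* and at 4.79 and 5.71 in *nerd-1*+T. *HST*, the plant exportin of miRNAs, was at 7.46 and 8.32 FPKM in WT, at 6.76 and 7.03 in *nerd-1* and at 5.64 and 5.66 in *nerd-1*+T. *SDN2*, a small RNA-degrading nuclease, was at 22.1 and 22.9 FPKM in WT, at 15.7 and 15.2 in *nerd-1* and at 15.8 and 20.02 in *nerd-1*+T. In *nerd-1*+T *HESO1* was lower by -0.65 (limma adjusted *p* = 0.00253) and *HST* by -0.42 (limma adjusted *p* = 0.00558), both kept under all 13 alternatives. In *nerd-1* *SDN2* was lower by -0.52 (limma adjusted *p* = 0.0124), a call lost without any 1 of the WT and *nerd-1* libraries.

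Of the Pol IV and Pol V pathway genes, 2 of 7 tested were lower in both lines, fewer than the 36.3% and 39.8% of all features. *SHH1*, which brings Pol IV to chromatin, was at 9.20 and 10.5 FPKM in WT, at 7.89 and 6.55 in *nerd-1* and at 6.10 and 7.07 in *nerd-1*+T. *CLSY1*, a chromatin remodeller of the same pathway, was at 5.02 and 4.82 FPKM in WT, at 3.78 and 3.93 in *nerd-1* and at 4.05 and 3.83 in *nerd-1*+T. Their log2 changes in *nerd-1* were -0.40 (limma adjusted *p* = 0.0319) and -0.29 (limma adjusted *p* = 0.0142), and both calls were lost with median scaling and without either WT library or *nerd-1* replicate 2, that of *SHH1* also with no filter on low values and that of *CLSY1* also without *nerd-1* replicate 1. The medians of the 7 genes, -0.07 and -0.14, were above those of all features. Neither of the other *RDR* genes tested, *RDR3* and *RDR5*, was called in any comparison (0 of 2), with log2 changes from -0.19 to 0.21. Of the 5 miRNA precursor genes listed only *MIR162A* was tested, and the other 4 were listed at 0.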

How the data were processed

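Total RNA of seedlings was poly(A)-selected, made into libraries with a stranded kit and read as single reads. The authors removed reads of organellar and ribosomal RNA genes with Bowtie2 2.3.4, mapped the rest to TAIR10 with TopHat2 2.0.7 and estimated FPKM with Cufflinks 2.2.1, and the deposited values are these FPKM, 1 table per library. Each table has 64625 entries, of which 4 without identifier were left out. Whether Cufflinks used the strand is not given in the sources used here. The sources give a range of reads over the libraries and none for each, and counts could not be recovered, so the depth of each library is unknown.

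Groups came from the genotype labels. Log2(FPKM + 1) was fitted with limma 3.58.1 (R 4.3.3, variance trend, 6 libraries in one fit) over the 20249 features that reached 1 FPKM in 2 or more libraries, and *p*-values were Benjamini-Hochberg adjusted over all of them, with a threshold of 0.05. An exact permutation test of 2 against 2 libraries cannot go below 0.333. Fold changes of low genes are understated on this scale. The fit was run on simulated data with few changed features, equal spread in all genotypes and no overall shift. These data differ on each point, so that run does not measure the error of the calls here. A count model had been planned first, with limma for FPKM. The members and lists were chosen with earlier results of these data known. The text names all members, *NERD*, overlapping or close same-strand neighbours (within 500 bp), and per list at most 4 called genes with the largest change. Tables were read with Python 3.11.15 and pandas 2.3.3. Positions are those of RefSeq TAIR10.1, where 32780 of 33242 gene identifiers were found. Alternatives were 2 scalings, 2 filters, a pseudocount of 0.1, the replicate block, the 2 genotypes alone and leaving out each library.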

Additional observations from a re-analysis of the deposited data

How the results depend on the processing

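The number of members called was sensitive to the settings. In *nerd-1* against WT it was 3, but 8 with equal library totals, 1 with median scaling, 6 with only the 2 genotypes in the fit and 1 to 5 with 1 library left out. In *nerd-1*+T against WT it was 7, but 1 with median scaling, 3 with only the 2 genotypes and 1 to 8 with 1 library left out. In *nerd-1* against *nerd-1*+T it was 3, but 1 with equal library totals, 1 with only the 2 genotypes and 0 to 3 with 1 library left out. The replicate block gave 2, 7 and 3 members, without *SDE3* in *nerd-1* against WT (limma adjusted *p* = 0.0619), and of the named list genes *SHH1* in *nerd-1* against WT (0.052), *TAS1C* in *nerd-1*+T against WT (0.0607) and *TAS1C* and *HESO1* in *nerd-1* against *nerd-1*+T (0.0564 and 0.0642) were no longer called; replicate numbers did not pair the libraries (correlations of deviations 0.0491, 0.0883 and -0.000711). Calls kept under all 13 alternatives were 1 of 3, 1 of 7 and 0 of 3 for the members, and 6 of 14, 8 of 16 and 1 of 8 for the named list genes. All features split into 3924 higher and 7351 lower in *nerd-1* against WT, and the lower ones numbered 10319 of 12960 with equal totals and 5170 of 10641 with median scaling. In *nerd-1*+T against WT median scaling gave 3910 lower of 8113, and in *nerd-1* against *nerd-1*+T equal totals gave 5669 lower of 8043. *MT1A* alone held 12.9% and 13.5% of the FPKM total in *nerd-1* and 1.10% to 3.57% elsewhere, and its part in the difference between the scalings was not tested.

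Only changes near 0 turned sign, none of them called. With equal library totals these were, in *nerd-1* against WT, *DCL4* (-0.083) and *ARF4* (-0.13), in *nerd-1*+T against WT, *DCL1* (0.0076), and in *nerd-1* against *nerd-1*+T, *RDR1* (-0.14), *RDR2* (-0.10), *SGS3* (-0.11), *SDE3* (-0.10), *RTL2* (-0.016) and *SHH1* (-0.034). With median scaling these were *DCL1* (0.069) and *HEN1* (0.0199), then *DCL1* (0.16), then *RDR1* (-0.045), *RDR2* (-0.015), *SGS3* (-0.018) and *SDE3* (-0.0096), in the same order of comparisons. With 1 library left out, the ranges were -0.11 to 0.023 for *DCL1* and -0.030 to 0.046 for *ARF4* in *nerd-1* against WT, -0.065 to 0.044 for *DCL1* in *nerd-1*+T against WT, and, in *nerd-1* against *nerd-1*+T, -0.097 to 0.034 for *DCL1*, -0.17 to 0.031 for *DCL3*, -0.040 to 0.059 for *RDR1*, -0.061 to 0.13 for *RDR2*, -0.11 to 0.075 for *DRB2*, -0.18 to 0.026 for *DRB4*, -0.029 to 0.27 for *RTL2*, -0.0040 to 0.23 for *SHH1* and -0.056 to 0.0062 for *CLSY1*. The causes of these turns were not tested. Without counts, the depth that limits low genes such as *DCL3* and *RDR2* is unknown.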
